A study of Mus musculus with 6 samples.

Results

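The genes described here encode 47 proteins that repair DNA double-strand breaks and interstrand crosslinks, read from a table of 17912 genes in mouse embryonic stem cells (ESCs). They were taken by gene symbol from a list with 3 branches: homologous recombination with its damage signalling (29 genes), the Fanconi pathway (13) and classical end joining (5). The list was set with earlier results of these data known. All 47 were present once in the table, and all 47 had enough signal to be tested. Poly(A) RNA of 6 libraries was sequenced. The 3 control libraries (replicates 1, 2 and 3) carry the genotype label WT. The other 3 come from clones 5, 6 and 7, labelled EXOSC2_KD and carrying shEXOSC2, a short hairpin RNA against Exosc2, a subunit gene of the RNA exosome that degrades and trims RNA. Each clone library stands for 1 clone, and the labels do not say whether the controls carried a hairpin, what drove the hairpin, or whether controls and clones share a parental line. Separate cultures are not named either, and p-values therefore reflect the spread among these 6 libraries alone, part of which may be technical.

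A double-strand break can be closed by end joining, in which the Ku proteins cap the ends and a ligase seals them, or by recombination, in which the ends are cut back and the lost sequence is copied from the sister chromatid. The Fanconi proteins recognise and unhook crosslinks that stall replication and hand the resulting break to recombination. Recombination works in S and G2 phase, when a sister is present, while end joining works throughout the cell cycle. ESCs divide rapidly, spend much of their cycle in S phase and are known for strong use of recombination.

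Levels are scaled counts, that is, reads per gene divided by a size factor for each library, and are given for control replicates 1, 2 and 3 and then for clones 5, 6 and 7. A log2 fold change is the mean of the clones minus the mean of the controls on the log2(scaled count + 1) scale, with its standard error (SE). A gene is said to fall or rise where its adjusted p, from limma with Benjamini-Hochberg adjustment over all 15179 tested genes, was under 0.05. Libraries held between 21107761 and 26494985 recovered reads. Exosc2 itself measured 2457, 2473 and 1954 in the controls and 1138, 997 and 981 in the clones, so the groups did not overlap. Its log2 fold change was -1.14 (SE 0.13, limma adjusted p = 5.11e-05), and p = 0.1 by an exact permutation test (two-sided), the lowest value this design can reach.

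The clones differed from the controls across most of the transcriptome, which sets the scale for the counts below. Of 12 ESC markers 11 fell and Pou5f1 rose, with a summed level of 111777 to 129652 in the controls and 92827 to 99046 in the clones. Pou5f1 alone, at 89025, 93458 and 90860, made up most of the clone sum. The median log2 fold change of the 12 was -10.7, while Sox2 and Fgf4 fell less (-2.10 and -1.03). Zfp42, Utf1 and Tcl1 had no read in the clones, so the ESC label goes against these markers there. Of 11 tested fibroblast or feeder markers 9 rose and 2 fell (summed level 46552 to 71121 in the controls and 68984 to 89468 in the clones), and no marker of that list was at 0. Of 7 epithelial markers 4 rose and 3 fell, with Krt6a at 0 in the controls, and of 3 tested leukocyte markers 1 rose. The part of these other cell types and states in the results below was not tested. Fewer cells of a type and less RNA per cell cannot be told apart in such bulk libraries.

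The 47 listed genes were lower in the clones more often than genes at large, and few were higher. Of the 47, 28 fell, 5 rose and 14 did not pass. Among all tested genes, 38.3% fell and 35.2% rose. The 33 that changed in either direction are a share near that of all tested genes (73.5%), so it is the balance of falls and rises that differs. The median log2 fold change was -0.83 for the 47 against -0.07 for all tested genes. Because the list was set with earlier results known, these shares describe it and test nothing. Of 77 tested genes of the same pathways outside the list, 41 fell (53.2%) and 20 rose (26.0%). A fall of at least 2-fold was seen for 18 of the 47 (25.7% of all tested genes) and a rise of that size for 1, Rad51d (22.4%). All 3 clones lay below all 3 controls for 28 members (40.6% of all tested genes) and above them for 7 (36.7%). Full separation of the groups was thus common among all genes, and mentions of overlap below only describe the values.

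The recombination and Fanconi branches had like shares of falls and like medians. The share of falls in end joining was near that of genes at large (38.3%), but it depended on the call of a single gene, Prkdc. In recombination 18 of 29 fell (62.1%) and 4 rose, and the median change on the log2 scale was -0.98. In the Fanconi branch 8 of 13 fell (61.5%) and 1 rose (2 with chromosome medians subtracted), with a median of -0.86. Of the 5 end-joining genes 2 fell (40.0%) and none rose, with a median of -0.20. Summed levels did not follow this order, since that of end joining fell by the largest share. It was 10586.5 to 12357 in the controls and 5316 to 5828 in the clones, with Xrcc5 as the largest part. The sums were 43924 to 51856.5 and then 27491 to 31096 for recombination, and 12967 to 13782 and then 8132 to 8493 for Fanconi. These branches were set side by side as counts and medians, and no test of the difference between branches was made. Each gene was counted in 1 branch only, and other ways of dividing the genes were not tried. With 5 genes, the end-joining median is that of Prkdc alone. Prkdc was called lower with chromosome medians subtracted and with quantile normalization, so that 3 of the 5 fell in each. With chromosome medians subtracted, 18 recombination and 9 Fanconi genes fell (36.7% of all tested genes).

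The branch medians moved alike in the 3 clones. Taken as the median deviation from the control mean, recombination stood at -0.77, -0.91 and -0.99 in clones 5, 6 and 7 against 0.07, -0.09 and 0.00 in the controls. The Fanconi branch stood at -0.79, -0.92 and -0.84 against 0.03, 0.07 and -0.07. End joining stood at -0.10, -0.20 and -0.29 against 0.13, -0.11 and -0.05, so that clone 5 (-0.10) lay within the control range. The other branches showed no overlap of clones with controls.

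**Figure D1:**
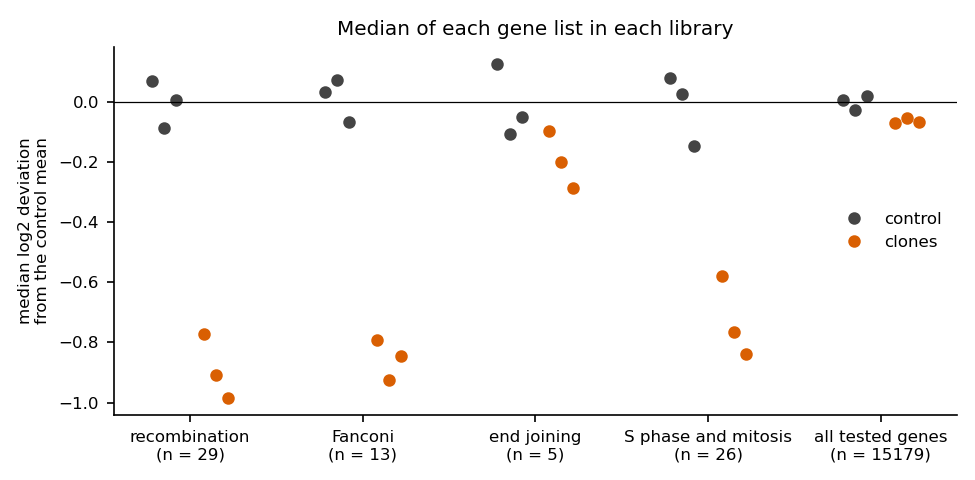
Median log2 deviation from the control mean (vertical axis) of each gene list in each library, with controls in grey and clones in orange. Recombination and Fanconi medians lie between -0.77 and -0.99 in the clones, end joining between -0.10 and -0.29, and all tested genes between -0.05 and -0.07.

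Genes of S phase and mitosis moved with these branches. Of 26 genes on that list 19 fell (38.3% of all tested genes), E2f2 alone rose and 6 missed the threshold. The median of the 26 log2 fold changes was -0.75. Their summed level was 199758 to 220431 in the controls and 111899 to 120383 in the clones, and none was at 0. The list was not uniform, since Mcm3, a subunit of the replicative helicase, fell by 2.28 on the log2 scale while Mki67, the Ki-67 proliferation antigen gene, had a log2 fold change of 0.07 (limma adjusted p = 0.656). The part of a change in cell cycle in the repair genes was not tested.

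**Figure D2:**
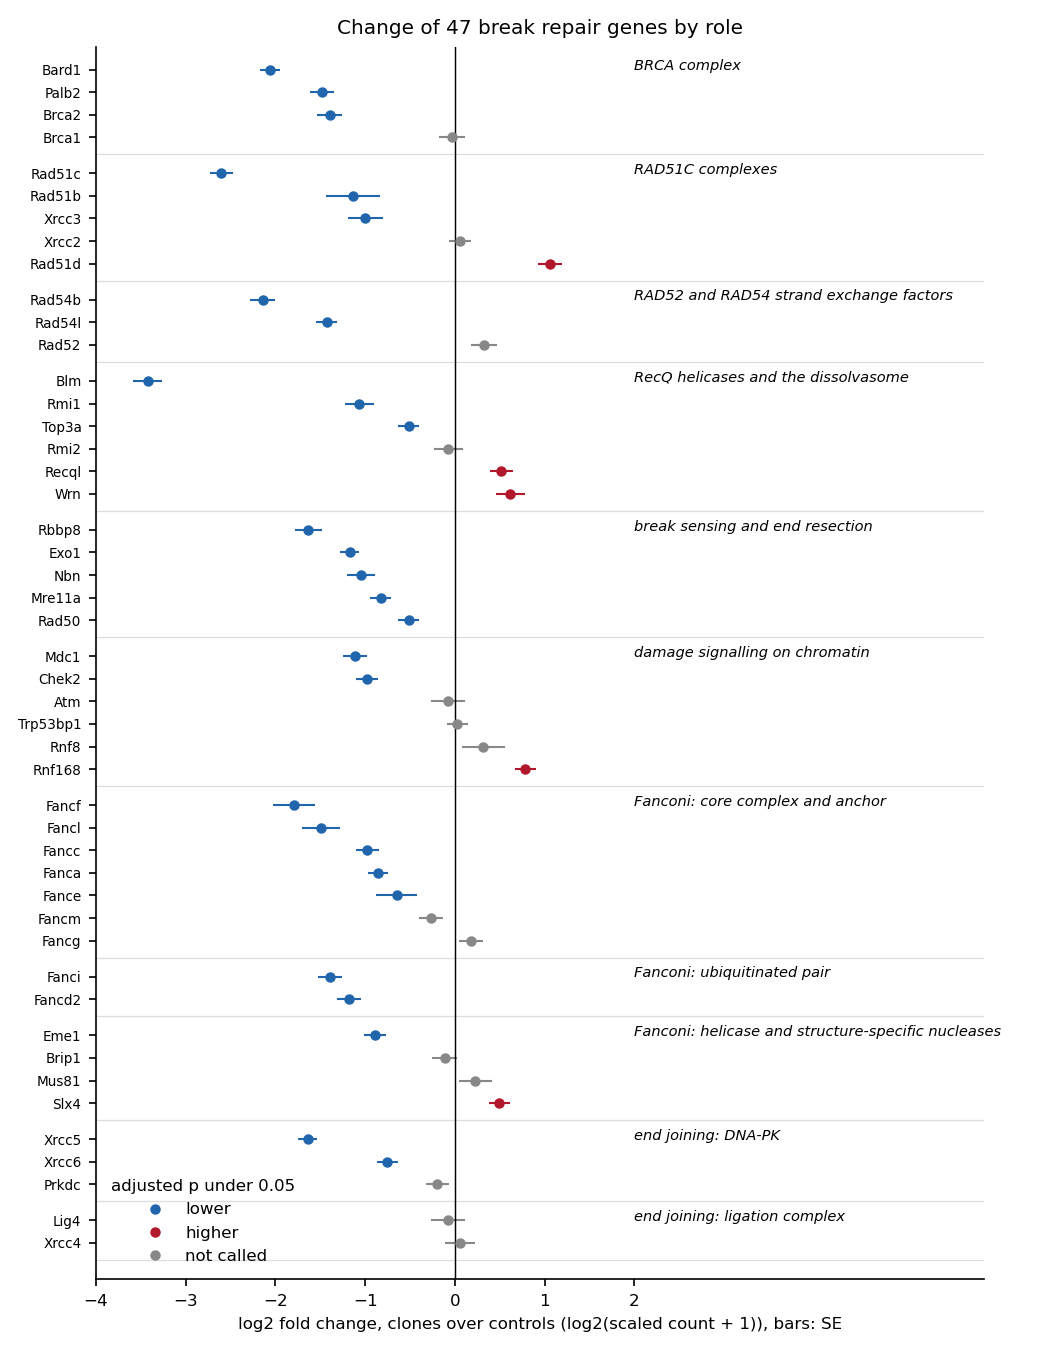
Log2 fold change of each of the 47 genes (horizontal axis, clones over controls, bars give the SE), grouped by the role of the protein and coloured by the limma call. Most groups hold blue points on the left (28 falls) together with grey points at 0 (14 not called), and 5 red points on the right mark the rises.

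Promoters of the members held a short word more often than promoters at large. Sequences just upstream of the start site are shown for a few members. RefSeq promoters (GRCm38.p6, the assembly of mm10, 250 bases before to 50 bases after the start) matched 35 of the 47 by symbol. The CCAAT box, a word bound by the factor NF-Y in many cell-cycle promoters, was searched as CCAAT on both strands. It stood in 22 of 35 member genes (62.9%) against 43.0% of 10836 tested genes with a promoter, in 15 of 21 members that fell (71.4%), in 2 of 3 that rose and in 5 of 11 that did not pass (45.5%). An E2F-like word, TTTGGCG or TTTCGCG, stood in 6 of 35 members (17.1%) against 4.78%, among them Brca2 and Rad51c. By call these were 4 of 21 that fell, 1 of 3 that rose and 1 of 11 that did not pass. The NRF1-like word GCGCATG stood in 5 (14.3%) against 7.67%, and the CHR-like word TTTGAA in 4 (11.4%) against 14.0%. In the same order of calls, the NRF1-like word stood in 2 of 21, 0 of 3 and 3 of 11 members. The CHR-like word stood in 3 of 21, 0 of 3 and 1 of 11. Words were counted separately, so a base could belong to more than 1 match. A match is a description of letters and no measured binding site. Whether any of these words bears on the falls was not tested. The printed windows run 5′ to 3′ up to the base before the start site, cut where an annotated exon begins, with capitals marking CCAAT or its reverse complement ATTGG. The first 4 belong to genes that fell and the last to a gene that did not pass and holds no such word. These windows are examples, and other members went the other way. The word also stood in the promoters of Recql, which rose, and of Brca1 and Brip1, which did not pass. Brca2 and Rad51c fell and hold no such word.
Xrcc3, chr12:111813880-111814129, minus strand: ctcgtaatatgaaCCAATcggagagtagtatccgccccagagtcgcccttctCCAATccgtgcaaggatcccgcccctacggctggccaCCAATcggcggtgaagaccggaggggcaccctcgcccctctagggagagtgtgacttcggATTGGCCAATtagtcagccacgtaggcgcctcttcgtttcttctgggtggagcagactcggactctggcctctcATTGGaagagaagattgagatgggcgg
Rad54l, chr4:116123691-116123839, minus strand: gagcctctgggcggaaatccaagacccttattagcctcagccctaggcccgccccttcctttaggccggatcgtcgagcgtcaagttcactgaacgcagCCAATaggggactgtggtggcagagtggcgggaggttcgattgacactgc
Mdc1, chr17:35841248-35841497, plus strand: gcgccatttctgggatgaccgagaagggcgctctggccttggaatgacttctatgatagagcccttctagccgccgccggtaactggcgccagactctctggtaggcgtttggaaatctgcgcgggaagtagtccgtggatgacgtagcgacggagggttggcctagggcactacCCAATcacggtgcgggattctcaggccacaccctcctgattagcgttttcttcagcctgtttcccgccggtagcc
Fanca, chr8:123318577-123318826, minus strand: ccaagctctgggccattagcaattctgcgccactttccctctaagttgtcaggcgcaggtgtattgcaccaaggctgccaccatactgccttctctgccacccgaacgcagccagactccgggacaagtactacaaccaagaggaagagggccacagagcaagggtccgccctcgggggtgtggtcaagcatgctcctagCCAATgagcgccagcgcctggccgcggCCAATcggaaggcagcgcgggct
Trp53bp1, chr2:121271408-121271657, minus strand: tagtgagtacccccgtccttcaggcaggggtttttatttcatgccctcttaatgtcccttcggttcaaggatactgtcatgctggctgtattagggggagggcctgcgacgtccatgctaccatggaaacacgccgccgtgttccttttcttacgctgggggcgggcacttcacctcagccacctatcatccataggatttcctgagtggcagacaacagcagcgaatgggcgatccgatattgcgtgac

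At the start of recombination, all 5 genes of break sensing and end resection fell (38.3% of all tested genes fell). RAD50, MRE11 and NBN form the complex that holds and trims the ends, RBBP8 (CtIP) switches on its nuclease, and EXO1 extends the cut. Rbbp8 measured 1238, 996 and 908 in the controls and 367, 322 and 316 in the clones, which retained 32.0% of the control mean. Its log2 fold change was -1.63 (SE 0.15, limma adjusted p = 1.47e-05). Rad50 changed least in this group, from 3389, 2843 and 3504 to 2374, 2251 and 2159.6. All clones lay below all controls for either gene (40.6% of all tested genes). Rad50 had a log2 fold change of -0.52 (SE 0.11, limma adjusted p = 0.0027). Exo1, Nbn and Mre11a had log2 fold changes of -1.17, -1.05 and -0.83. Exo1 lies on chromosome 1, whose 930 tested genes had a median log2 fold change of -0.60, and with chromosome medians subtracted its value was -0.58.

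Genes of the BRCA complex split, with Brca1 unlike its partners. BARD1 is the obligate partner of BRCA1 in a ubiquitin ligase, and PALB2 joins BRCA1 to BRCA2. Bard1 (ENSMUSG00000026196.7, chromosome 1, 71027498 to 71103146 in GRCm38) measured 3235, 2856 and 3052 in the controls and 783, 725 and 682 in the clones. Every clone lay far below every control, with a log2 fold change of -2.06 (SE 0.11, limma adjusted p = 4.89e-07). Brca1 (chromosome 11, 101488764 to 101551955) measured 4357, 3454 and 4998 in the controls and 4467, 4158 and 3760.2 in the clones. These groups overlapped, and the log2 fold change of Brca1 was -0.04 (SE 0.15, limma adjusted p = 0.833). Palb2 and Brca2 fell, with log2 fold changes of -1.48 and -1.40. With chromosome medians subtracted Bard1 stood at -1.48.

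Genes of the complexes that RAD51C shares with other recombination proteins moved in opposite directions. RAD51B, RAD51C, RAD51D and XRCC2 form one complex, and RAD51C with XRCC3 forms another. Rad51c (ENSMUSG00000007646.13, chromosome 11, 87376645 to 87404954) measured 1107, 1028 and 1174 in the controls and 177, 179 and 186 in the clones. This was the second largest fall of the 47, to 16.4% of the control mean (log2 fold change -2.60, SE 0.13, limma adjusted p = 3.66e-07), and 12.7% of tested genes had a lower log2 fold change. Rad51d, on the same chromosome (82876434 to 82890614), measured 502, 589 and 439 in the controls and 1036, 1073 and 1058 in the clones. All clones lay above all controls, at 207% of the control mean (log2 fold change 1.06, SE 0.14, limma adjusted p = 0.000114). Xrcc2 measured 595, 523 and 543 in the controls and 602, 575 and 556 in the clones, with overlapping groups (log2 fold change 0.06, limma adjusted p = 0.657). Xrcc3 and Rad51b fell as well, to 49.4% and 46.9% of the control mean. Rad51b was near the lowest level of the 47, with a control mean of 108, and its call was lost with quantile normalization.

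Among strand-exchange factors the RAD54 translocase genes fell and Rad52 did not pass. RAD54L and RAD54B are motor proteins that act during strand invasion, and RAD52 anneals single strands. Rad54b measured 1537, 1288 and 1617 in the controls and 366, 329 and 306 in the clones, a log2 fold change of -2.14 (SE 0.14, limma adjusted p = 1.6e-06). Of its exonic bases 35.9% are shared with other annotated genes, mainly Fsbp on the same strand, so how reads were divided is uncertain. Rad54l fell by 1.43 on the log2 scale, and 15.4% of its exonic bases lie opposite Lrrc41. Rad52 measured 408, 332 and 323 in the controls and 418, 455 and 454 in the clones. The clones lay above the controls without passing the test (log2 fold change 0.33, limma adjusted p = 0.0758), and the value was -0.061 with chromosome medians subtracted. Rad52 passed the test without control replicate 1, with a log2 fold change of 0.43.

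The RecQ helicases held the largest fall of all 47 members and also rises. BLM works with the topoisomerase TOP3A and the scaffold proteins RMI1 and RMI2 to take apart joined recombination intermediates without crossing over, and WRN and RECQL are related helicases. Blm (ENSMUSG00000030528.12, chromosome 7, 80454733 to 80535119) measured 3952, 3064 and 4706 in the controls and 383, 353 and 339 in the clones. The lowest control was thus far above the highest clone, and the clones held 9.18% of the control mean (log2 fold change -3.42, SE 0.16, limma adjusted p = 2.73e-07). Of all tested genes, 9.91% had a lower log2 fold change. Rmi1 and Top3a fell less, with log2 fold changes of -1.06 and -0.51. Rmi2 measured 304, 279 and 242 in the controls and 282, 240.4 and 259 in the clones, with overlapping groups (log2 fold change -0.07, limma adjusted p = 0.691).

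Wrn and Recql were the helicase genes that rose. Wrn measured 869, 688 and 1019 in the controls and 1356, 1379 and 1183 in the clones, all above the controls (log2 fold change 0.62, SE 0.16, limma adjusted p = 0.00655). It lies on chromosome 8, where the median of tested genes was -0.49, and it stood at 1.10 with chromosome medians subtracted. Recql measured 754, 658 and 658 in the controls and 1062, 896 and 1012 in the clones (log2 fold change 0.52, SE 0.12, limma adjusted p = 0.00465). Its groups did not overlap, but its call was lost with chromosome medians subtracted (0.13) and with quantile normalization (0.30), as was that of Wrn with quantile normalization (0.40). Recql shares 37.7% of its exonic bases with Pyroxd1 on the opposite strand, and reads of the pair cannot be told apart if strand was not used.

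Damage signalling genes moved both ways. ATM is the kinase that reports breaks and CHEK2 its effector kinase, MDC1 binds the marked histone, RNF8 and RNF168 ubiquitinate chromatin around the break, and the protein of Trp53bp1 binds there and limits resection. Mdc1 measured 7214, 6187 and 8513 in the controls and 3610.1, 3395 and 3065 in the clones, a fall to 45.9% (log2 fold change -1.11, SE 0.13, limma adjusted p = 7.15e-05). Chek2 fell by 0.98. Rnf168 rose, from 1485, 1157 and 1327 to 2319.9, 2306 and 2177 (log2 fold change 0.78, SE 0.12, limma adjusted p = 0.000299). No clone overlapped a control for any of these 3 genes. Among all tested genes, all clones lay below all controls for 40.6% and above them for 36.7%. Trp53bp1 measured 2433, 2154 and 2705 in the controls and 2633, 2514 and 2264 in the clones. It had a log2 fold change of 0.03 (limma adjusted p = 0.845), Atm of -0.08 and Rnf8 of 0.32, all with overlapping groups. Rnf8 passed the test without control replicate 2 (0.55), and it shares 13.2% of its exonic bases with Gm28043 on the same strand. Of the exonic bases of Trp53bp1, 15.0% lie opposite Tubgcp4, whose reads are separated only by strand.

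**Figure D3:**
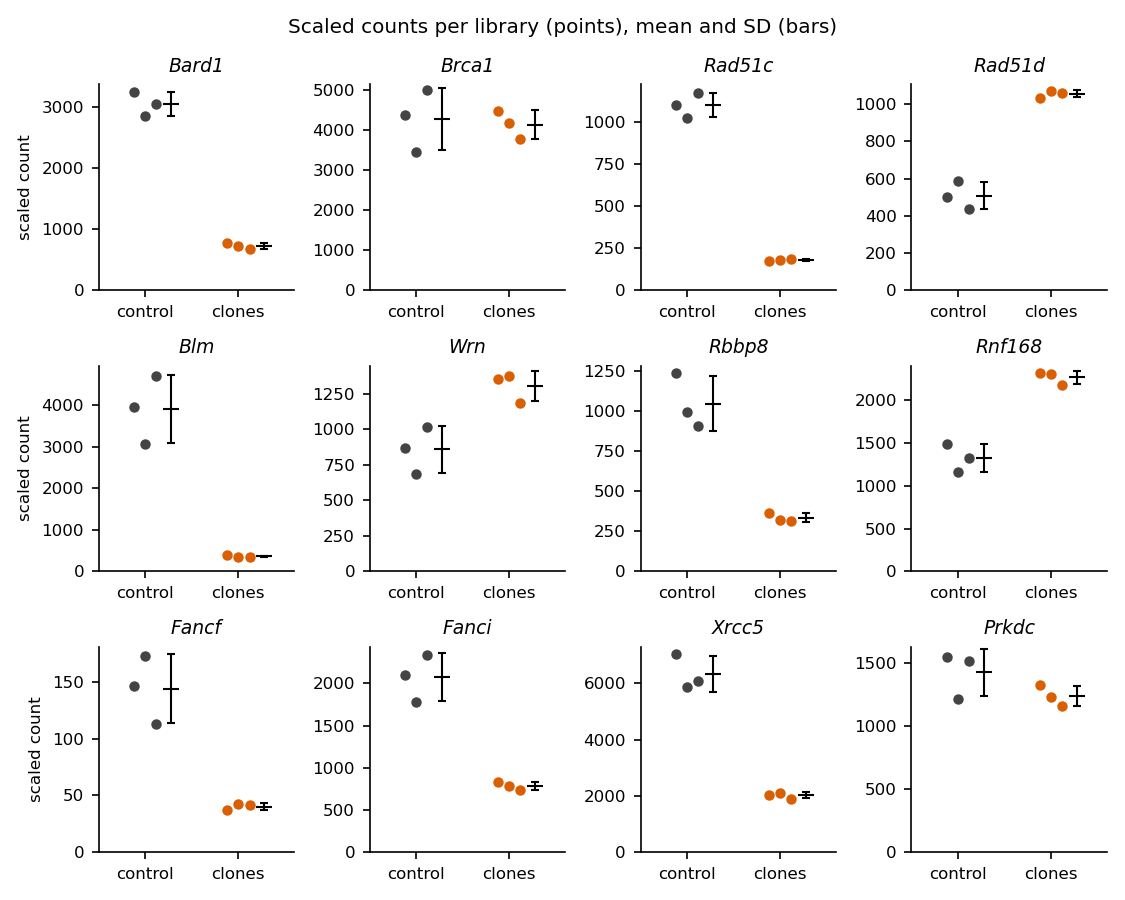
Scaled counts (vertical axes, each from 0) of 12 members in each library, with controls in grey, clones in orange, and bars for the mean and SD of 3 libraries. Bard1, Rad51c, Blm, Rbbp8, Fancf, Fanci and Xrcc5 show clones far below controls, Rad51d, Wrn and Rnf168 show clones above them, and Brca1 and Prkdc overlap.

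In the Fanconi core complex 5 of 7 genes fell (38.3% of all tested genes fell). This complex, which FANCM anchors at the crosslink and whose subunit FANCL is the ubiquitin ligase, marks FANCD2 and FANCI. Fancf, a small adaptor subunit gene with a single exon (chromosome 7, 51860577 to 51862267), measured 146, 173 and 112 in the controls and 36.8, 42.1 and 41.5 in the clones. The clones held 27.9% of the control mean (log2 fold change -1.79, SE 0.24, limma adjusted p = 0.000126). Fancl, Fancc, Fanca and Fance fell with log2 fold changes of -1.49, -0.98, -0.86 and -0.65. Fance was the least steady, since control replicate 2 stood at 1049 beside 556 and 649.8 in the others. Its call was lost without that library (-0.38), without clone 5 (-0.57) or clone 7 (-0.63), and with eBayes without trend. Fanca, on chromosome 8, stood at -0.38 with chromosome medians subtracted. Fancc, Fancf, Fancl and Fanca share 18.6%, 15.0%, 13.7% and 10.5% of their exonic bases with genes on the opposite strand. Their counts are less certain if strand was not used.

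Fancg and Fancm did not pass the test. Fancg measured 423, 457 and 378 in the controls and 478, 466 and 475 in the clones, which lay above the controls by less than the test resolves (log2 fold change 0.18, SE 0.13, limma adjusted p = 0.254). With chromosome medians subtracted it was called higher (0.46). Fancm had a log2 fold change of -0.27 (limma adjusted p = 0.101), and it was called lower with quantile normalization (-0.49), with chromosome medians subtracted (-0.28) and without control replicate 2 (-0.40).

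Both genes of the ubiquitinated pair fell. FANCI and FANCD2 clamp onto DNA together once marked and recruit the nucleases. Fanci measured 2104, 1777 and 2338 in the controls and 833, 782 and 742 in the clones (log2 fold change -1.39, SE 0.13, limma adjusted p = 1.37e-05). It shares 16.0% of its exonic bases with Polg on the opposite strand. Fancd2 measured 2817, 2209 and 3090.5 in the controls and 1206, 1166 and 1185 in the clones (log2 fold change -1.18, SE 0.14, limma adjusted p = 5.47e-05). All clones lay below all controls for both (40.6% of all tested genes).

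The nuclease and helicase genes of the Fanconi branch showed little common change. SLX4 is the scaffold of several nucleases, MUS81 is a nuclease active with EME1 or EME2, and BRIP1 is a helicase that binds BRCA1. Eme1 fell, from 1049, 994 and 889 to 566, 485 and 529.5 (log2 fold change -0.89, SE 0.13, limma adjusted p = 0.00021). It shares 10.7% of its exonic bases with genes on the opposite strand. Slx4 rose, from 762, 779.8 and 905 to 1173, 1076 and 1200.2 (log2 fold change 0.50, SE 0.12, limma adjusted p = 0.00465), a call lost with quantile normalization (0.27). Neither gene had a clone within the control range (all clones below in 40.6% and above in 36.7% of all tested genes). Brip1 measured 798, 674 and 719 in the controls and 749, 704 and 578 in the clones, with overlap and a log2 fold change of -0.11 (limma adjusted p = 0.485). Mus81 overlapped too, with a log2 fold change of 0.23.

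In end joining the Ku genes fell while the kinase and ligation genes did not pass. XRCC6 and XRCC5 are the Ku70 and Ku80 subunits that ring the broken end, PRKDC is the kinase they recruit, and XRCC4 and LIG4 seal the break. Xrcc5 (ENSMUSG00000026187.8, chromosome 1, 72307421 to 72394952) measured 7045, 5858 and 6096 in the controls and 2053, 2119 and 1911 in the clones. The clones held 32.0% of the control mean (log2 fold change -1.64, SE 0.11, limma adjusted p = 1.7e-06). On chromosome 1 the median of all tested genes was -0.60, and with chromosome medians subtracted Xrcc5 stood at -1.05. Xrcc6 measured 2724, 2713 and 2305 in the controls and 1593, 1601 and 1402 in the clones, again without overlap (log2 fold change -0.75, SE 0.11, limma adjusted p = 0.000312).

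For the 3 other end-joining genes clones and controls overlapped. Prkdc measured 1545, 1214 and 1514 in the controls and 1323, 1231 and 1159.6 in the clones (log2 fold change -0.20, limma adjusted p = 0.194). It was called lower with quantile normalization (-0.41), with chromosome medians subtracted (-0.34) and without control replicate 2 (-0.31). Xrcc4 measured 279, 221 and 275 in the controls and 268, 247 and 292 in the clones (log2 fold change 0.06, SE 0.17, limma adjusted p = 0.762). Lig4 measured 764, 580.0 and 464 in the controls and 591, 538 and 552 in the clones (log2 fold change -0.08, SE 0.18, limma adjusted p = 0.722). The wide control spread of Lig4 held every clone.

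Since members of 1 complex changed unequally, ratios between them were taken in each library from scaled counts per kilobase of exon. Length is that of all annotated exons of a gene joined. The size of a ratio thus depends on the annotation, while its shift between groups does not. These 14 pairs were chosen with the fold changes known, so they are given as values with no test. The ratio of Bard1 to Brca1 was 1.12, 1.25 and 0.921 in the controls and 0.264, 0.263 and 0.273 in the clones. Rad51c to Rad51d stood at 1.87, 1.48 and 2.27 and then at 0.145, 0.141 and 0.149. In these pairs the gene that had been level or higher per kilobase became the lower one. The same held for Blm and Wrn, with ratios of 3.93 ± 0.0704 in the controls and 0.238 ± 0.0143 in the clones (SD, n = 3). Without division by length, Bard1 was already below Brca1 in every control (control means 3048 and 4270).

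The Ku pair kept its order. Xrcc5 to Xrcc6 stood at 4.53, 3.78 and 4.63 in the controls and 2.26, 2.32 and 2.39 in the clones, so the Ku80 gene stayed the higher per kilobase. Fancd2 to Fanci stood at 0.974, 0.904 and 0.962 and then at 1.05, 1.09 and 1.16, a shift of 0.22 on the log2 scale. Palb2 to Brca2 and Xrcc4 to Lig4 overlapped between groups. The other 12 ratios did not overlap, which says little given how the pairs were chosen and that clones lay below all controls for 40.6% and above them for 36.7% of all tested genes.

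**Figure D4:**
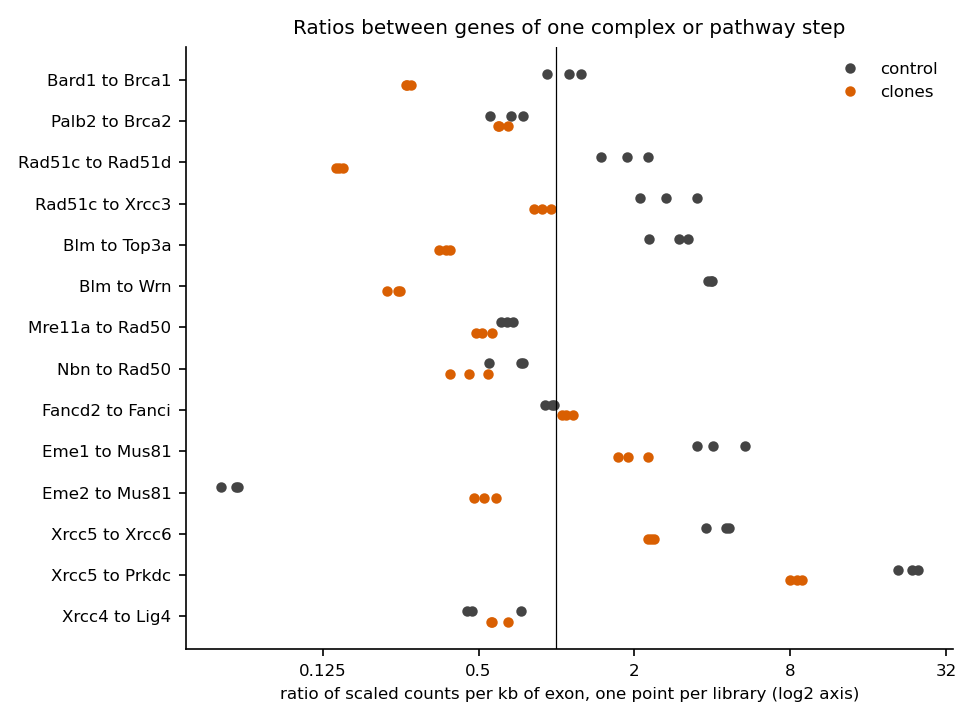
Ratio of scaled counts per kilobase of exon between genes of 1 complex or pathway step (horizontal log2 axis), 1 point per library, with controls in grey above and clones in orange below. Bard1 to Brca1, Rad51c to Rad51d, Blm to Top3a and Blm to Wrn shift to the left, with log2 differences of -2.03, -3.67, -2.91 and -4.04, while Palb2 to Brca2 and Xrcc4 to Lig4 overlap.

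The order of levels within the 47 changed with these falls. Per kilobase of exon, Xrcc5 was the most abundant member in both groups, at 2479 scaled counts in the controls and 794 in the clones, followed in the controls by Mdc1 (984), Chek2 (619) and Rad50 (604). In the clones Rnf168 (508), Brca1 (484) and Mdc1 (452) followed Xrcc5. Blm went from rank 8 in the controls (445) to rank 41 in the clones (40.9), and Bard1 from rank 6 to rank 19. Rnf168 went from rank 15 to rank 2 and Rad51d from rank 25 to rank 8. Rnf8 (11.8) and Rad51b (28.9) were the lowest in the controls and again in the clones. These ranks depend on annotated length, since Rad51b had fewer scaled counts than Rnf8 (control means 108 and 138).

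The falls were spread over the genome. Members lay on 16 chromosomes, and 13 of these held at least 1 member that fell. All 3 members on chromosome 1 and all 4 on chromosome 7 fell, whereas none of the 4 on chromosome 16 did. On chromosome 11, where the median of all tested genes was 0.21, 5 of 8 members fell and 1 rose. Among tested genes of all chromosomes 38.3% fell and 35.2% rose, and such small counts per chromosome were not tested. With the median of each chromosome subtracted in each library, 30 members fell (36.7% of all tested genes) and 5 rose (36%), with a median of -0.69.

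**Figure D5:**
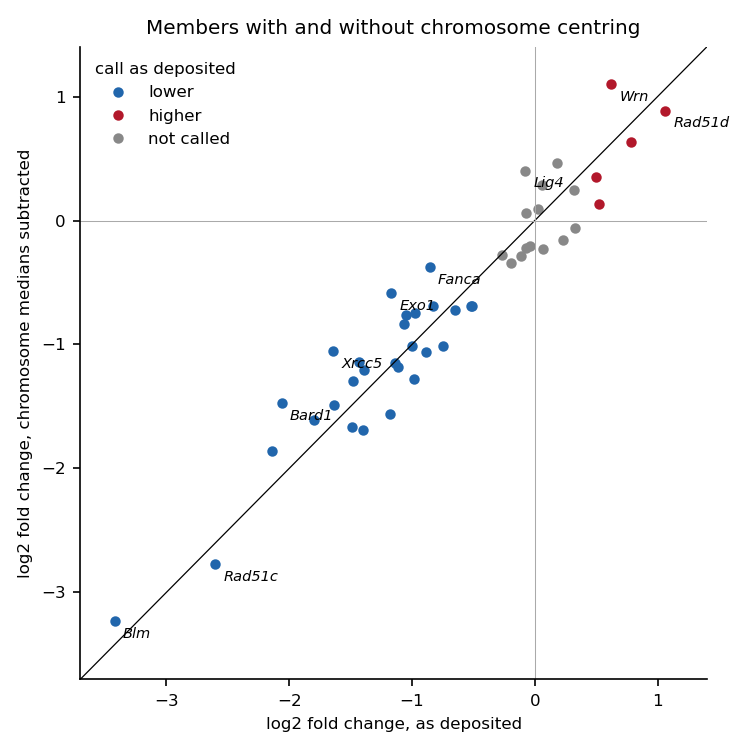
Log2 fold change of the 47 genes as deposited (horizontal axis) and with chromosome medians subtracted (vertical axis), coloured by the call on the deposited scale. Points follow the diagonal, and the genes on chromosomes 1 (Bard1, Exo1, Xrcc5) and 8 (Fanca, Wrn, Lig4) lie above it, by the chromosome medians of -0.60 and -0.49.

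Genes of the same pathways outside the 47 were read from a list of 81, of which 78 were in the table and 77 were tested. Of these 41 fell and 20 rose (38.3% and 35.2% of all tested genes), and their median change on the log2 scale was -0.33. For recombination 22 of 35 fell and 6 rose. Dmc1, a gene of meiotic recombination, measured 332, 291 and 386 in the controls while no clone held a read of it. Set against 3 reads in each clone library, the limit that a count of 0 allows, it was at least 114-fold lower. This limit covers counting error only. After Dmc1, the largest falls were those of the resection nuclease gene Dna2 (-1.99) and of Zswim7 (-1.96). The largest rises were Babam1 (1.15), Recql5 (0.94) and Gen1 (0.46), which encode a BRCA1-A complex subunit, a RecQ helicase and a junction resolvase.

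Of the further Fanconi genes 9 of 20 fell (45.0%) and 7 rose (35.0%), with a median of 0.18. Both shares are near those of all tested genes (38.3% and 35.2%). Ube2t, whose product works with FANCL to mark FANCD2, measured 2422, 2302 and 2556 in the controls and 310.4, 311 and 255 in the clones (log2 fold change -3.05, SE 0.13, limma adjusted p = 1.51e-07). The translesion polymerase genes Rev1 and Mad2l2 followed, with log2 fold changes of -1.50 and -1.21. Rev1 and Ube2t lie on chromosome 1 and stood at -0.91 and -2.47 with chromosome medians subtracted. Eme2, the alternative partner of Mus81, rose from 24.6, 31.3 and 28.1 to 317, 269 and 348 (log2 fold change 3.43, SE 0.21, limma adjusted p = 1.27e-06). Eme1 and Eme2 thus changed in opposite directions, and the ratio of Eme2 to Mus81 per kilobase went from 0.0558 ± 0.00453 to 0.529 ± 0.0507 (SD, n = 3). Ercc4 and Ercc1, the subunit genes of a crosslink-cutting nuclease, rose with log2 fold changes of 1.67 and 1.42.

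The further end-joining genes include those of the backup pathway that uses PARP1 and the ligases LIG1 and LIG3. Of 22 tested 10 fell (45.5%) and 7 rose (31.8%), again near the shares of all tested genes (38.3% and 35.2%), with a median of -0.22. Parp1 measured 28027, 31025 and 26945 in the controls and 5582, 6264 and 5813 in the clones (log2 fold change -2.28, SE 0.10, limma adjusted p = 2.23e-07, or -1.70 with chromosome medians subtracted). Its relative Parp2 (-1.74) and the end-cleaning enzyme gene Tdp2 (-1.59) gave the next falls. With chromosome medians subtracted Parp2 stood at -1.16 and Tdp2 at -1.36, and Tdp1 (-1.53) was lower than both. Parp3 rose, from 166, 169.6 and 169 to 1035, 1222 and 1101 (log2 fold change 2.72, SE 0.13, limma adjusted p = 3.31e-07). All clones were above all controls for this gene. BC029214, which encodes the end-joining factor PAXX, and the polymerase gene Polm also rose, with log2 fold changes of 1.49 and 1.44.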

How the data were processed

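Gene-level values of 6 libraries were used. TruSeq Stranded mRNA libraries were made by poly(A) selection from 500 ng of input RNA, with 8 PCR cycles, per the labels' protocols. The deposited values are a signal, read counts per gene scaled by the authors with DESeq per the file header. The build mm10 and the tools DESeq 1.22.1, HTSeq 0.5.3, STAR 2.5.0a and cutadapt 1.6 are named in the submitters' processing notes. The sources used here give no strand setting, and 11 members share over 10% of their exonic bases with another gene. Every value was a whole multiple of a step per library (within 0.001 read), so whole reads were recovered (100% of values).

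The test was limma 3.58.1 (eBayes with trend) on log2(value + 1), pseudocount 1, over 15179 genes with a mean of at least 10, called at a Benjamini-Hochberg adjusted p under 0.05. Such fold changes understate low genes. Genes (99.71%) were matched to GENCODE M21 (GRCm38) by identifier. Alternatives covered pseudocounts, filters, scaling, chromosome medians, edgeR 4.0.16, DESeq2 1.42.0 and leaving out each library. The test was also run on simulated counts in which a far smaller share of genes changed. That run therefore cannot check the scaling or the error rate for these data. Members, lists and named genes were chosen with earlier results of these data known. Named genes were the end-joining members, the largest and smallest change per role, the rises and the 6 largest changes, and the 3 largest changes each way per list of other pathway genes. R 4.3.3 and Python 3.11.15 were used.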

Additional observations from a re-analysis of the deposited data

How the results depend on the processing

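Of the 28 falling members, 26 were called lower under all 16 alternatives (Rad51b and Fance were not), and of the 5 rising members Rad51d and Rnf168 were called higher under all 16. With quantile normalization 2 members were called higher. The median of the members was -0.69 with chromosome medians subtracted and lay between -0.85 and -0.75 with single libraries left out (-0.75 without clone 7). The counts of members called lower, in all and in each branch, and of other pathway genes called lower or higher were within 1.5 times those reported under all 16 alternatives. The end-joining count reached that limit, going from 2 to 3 with quantile normalization and with chromosome medians subtracted. Rises within a branch were recounted with chromosome medians subtracted only, where the Fanconi branch had 2.

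Sign changes were limited to members that did not pass the test, and their cause was not tested. With quantile normalization Xrcc2 had a log2 fold change of -0.12 and Trp53bp1 of -0.16, and with edgeR Trp53bp1 had -0.00089. With chromosome medians subtracted Xrcc2 had -0.23, Rad52 -0.061, Atm 0.059, Mus81 -0.16 and Lig4 0.40. With single libraries left out Brca1 ranged from -0.18 to 0.086, Rmi2 from -0.16 to 0.00079, Atm from -0.27 to 0.10, Trp53bp1 from -0.057 to 0.11, Xrcc4 from -0.049 to 0.12 and Lig4 from -0.25 to 0.11. No paired analysis was possible because controls are numbered 1 to 3 and clones 5 to 7, with no shared number. Depth limits Rnf8, Rad51b and Fancf, the members with control means under 150 scaled counts.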
